A study of Homo sapiens with 12 samples.

Results

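The 34 genes described here are ones that p53 is known to switch on, other than CDKN1A, and their mRNA was followed in 2 lung cancer cell lines given the macrolide ISP-I. Genes were taken by symbol as named targets of the p53 pathway, and 33 of the 34 were found among the 19973 genes of the deposited expression table. The antisense transcript TNFRSF10D-AS1 was not matched by name and is not analysed here. In A549, 23 of the 33 genes rose and 3 fell, where 30.5% and 27% of all genes did so. In H460, where 31 could be tested, 11 rose and 13 fell, where 27.6% and 41.5% of all genes did so. By a test of the difference itself, the change in H460 was lower than that in A549 for 19 of 32 genes tested (34.7% of all genes). It was higher for 7 (18.6% of all genes).

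H460 (a large cell carcinoma line) and A549 (an adenocarcinoma line) are established human non-small cell lung cancer lines, both labelled wild type in genotype. The study's paper states that both lines have homozygous mutations that inactivate KEAP1. Each line was left non-treated (control) or given ISP-I, isovalerylspiramycin I, a main component of the antibiotic carrimycin, at 10 µM for 48 h. RNA was sequenced from 3 libraries per group, 12 in all. Nothing in the labels says that the 3 libraries came from separate cultures, so p-values measure only the spread between these libraries, which may be technical. For sequencing, a single dose and a single time were used.

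p53 is a transcription factor that binds a pair of short half-sites in DNA and raises the transcription of genes that halt the cell cycle, repair DNA, adjust metabolism or start apoptosis. Several of its targets act back on it: MDM2 marks p53 for degradation, and PPM1D removes activating phosphates from it. p53 is regulated mostly at the level of its protein, so its targets are often read as its output, although many of them are also driven by other factors such as ATF4 or FOXO.

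Values are FPKM, that is, read counts per gene divided by gene length and by the total of reads on listed genes in the library. Whole reads could be recovered from them, 14225849 to 17874422 per library. Changes are differences in log2(FPKM + 1), ISP-I minus control, which understate the change of genes near or under 1 FPKM. A gene passed at an adjusted p under 0.05 (limma over all genes tested, Benjamini-Hochberg). It was called when the change was also over 1 on this scale, which is 2-fold in FPKM + 1. In parentheses after the values stand the log2 change, its standard error (SE) and the adjusted p. Whole cultures were sequenced, so fewer cells of a kind and less RNA per cell cannot be told apart. The keratins KRT8, KRT18 and KRT19 were present in both lines, with group means between 45.6 and 649.9 FPKM. The epithelial markers CDH1 and EPCAM were nearly absent in H460 (group means of at most 0.0153 and 0.132 FPKM), while A549 controls had 4.9 ± 0.245 and 1.91 ± 0.164 FPKM. After ISP-I, 4 of these 5 epithelial genes fell in A549, CDH1 to 0.756 ± 0.153 FPKM (-1.75, adjusted p 2.74e-06) and EPCAM to 1.42 ± 0.0963 (-0.27, adjusted p 0.0188). In H460, KRT18 rose and KRT19 fell among the 3 tested. The part of these changes in the results below was not tested. Of 11 markers of blood, endothelial, stromal and differentiated airway cells, 10 had group means of at most 0.303 FPKM, and COL1A1 had 0.764 to 1.19. Scaling the libraries by median-of-ratios, in place of the total of reads, shifted the median change of all genes in H460 from -0.15 to 0.01 and in A549 from 0.02 to 0.00, so changes in H460 are to be read against that shift of 0.15.

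The p53 consensus site was searched first, because it is the sequence these genes are known for. A site was counted as a pair of adjacent half-sites, each with its core intact (C and G around a pair of A or T letters), and at most 2 mismatches at the other positions. The consensus reads the same on both strands, so a single scan covers both. In the 5001 bases centred on the listed gene start (hg38), 9 of the 33 genes held such a site (27.3%), against 456 of 19942 genes in the table (2.29%). With no mismatch allowed it was 2 of 33 (6.06%) against 0.0552%. This window was chosen after seeing the data, in place of the planned promoter windows, where 1 of 26 genes held a site. The genes were taken as known p53 targets, so these shares are a description only. The sites of 8 genes are printed here, so that they can be set beside the changes of the same genes. The cores are in capitals, and each is written 5′ to 3′ on the strand of its gene. The remaining site, of RRM2B, is not printed.
AEN, chr15:88621306-88621325, plus strand: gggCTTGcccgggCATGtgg
BTG2, chr1:203303642-203303661, plus strand: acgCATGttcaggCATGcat
CCNG1, chr5:163437926-163437945, plus strand: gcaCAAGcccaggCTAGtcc
CMBL, chr5:10307584-10307603, minus strand: acaCAAGcccacaCAAGccc
EDA2R, chrX:66638563-66638582, minus strand: gggCAAGtcagggCTTGtgt
PLK2, chr5:58462274-58462293, minus strand: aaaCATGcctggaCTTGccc
SPATA18, chr4:52051957-52051976, plus strand: ggaCATGtgtgtaCATGccc
ZMAT3, chr3:179070188-179070207, minus strand: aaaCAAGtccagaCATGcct

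PLK2 and ZMAT3 matched the consensus at every position, CCNG1 at all but 1, and the other genes printed had 2 mismatches. The AEN site began 31 bases before the listed start, the BTG2 site 1849 and the PLK2 site 2154 before it. Those of CCNG1, EDA2R, SPATA18 and ZMAT3 lay in introns, 357, 716, 653 and 2008 bases after the start, and that of CMBL in an exon. CCNG1 held a second site further into the gene. In the narrower RefSeq promoter windows (GRCh38.p14, 250 bases before to 50 after a start), which were found for 26 of the 33 genes, only AEN held a site (3.85%, against 0.201% of 27303 genes). A TATA box (TATAAA) stood in 1 of the same 26 promoters, that of GDF15 (3.85%, against 14% of all). Of the 9 genes with a site near the start, 7 rose in A549 and 4 in H460, and of the 24 without, 16 rose in A549 and 7 in H460. SPATA18, among the 9, and TRIM22, among the 24, were not tested in H460. Of all genes tested, 30.5% rose in A549 and 27.6% in H460. A match describes letters only, and its absence from these windows says nothing of sites elsewhere.

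In A549 the 23 genes that rose (of 33 tested) stood against 30.5% of all 13705 genes tested, and the 3 that fell against 27%. The median change of the 33 was 0.86, beside 0.02 for all genes. Called genes numbered 13, all higher, where 4.2% of all genes were called higher and 3.51% lower. In H460 the 11 genes that rose (of 31 tested) stood against 27.6% of 13423 genes and the 13 that fell against 41.5%. Both shares were near the background, as was the median change, -0.14 beside -0.15 for all genes. In H460, 6 genes were called higher and 3 lower, against 10.5% and 15.2% of all genes. Calls rest on log2(FPKM + 1), so some changes over 2-fold in mean FPKM passed without a call. In H460 these were the falls of TP53I11 (7.11-fold), CCNG1 (2.11-fold), FDXR (2.08-fold) and DDB2 (2.02-fold) and the rises of TIGAR (3.01-fold) and ZMAT3 (2.25-fold). In A549 they were the fall of TP53I11 (2.06-fold) and the rises of ZMAT3 (2.08-fold) and XPC (2.03-fold). With median-of-ratios scaling, 13 genes rose and 10 fell in H460, while A549 gave 23 and 3 again. The background in H460 moved as well, from 1409 of all genes called higher and 2047 lower to 1954 and 1504. The shares of all genes that passed with this scaling were not counted, so the shift is not a result about these genes. The libraries of the ISP-I and control groups did not overlap for 25 higher and 5 lower genes in A549 (34.8% and 30.7% of all genes) and for 11 and 14 in H460 (29.6% and 43.1%).

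**Figure D1:**
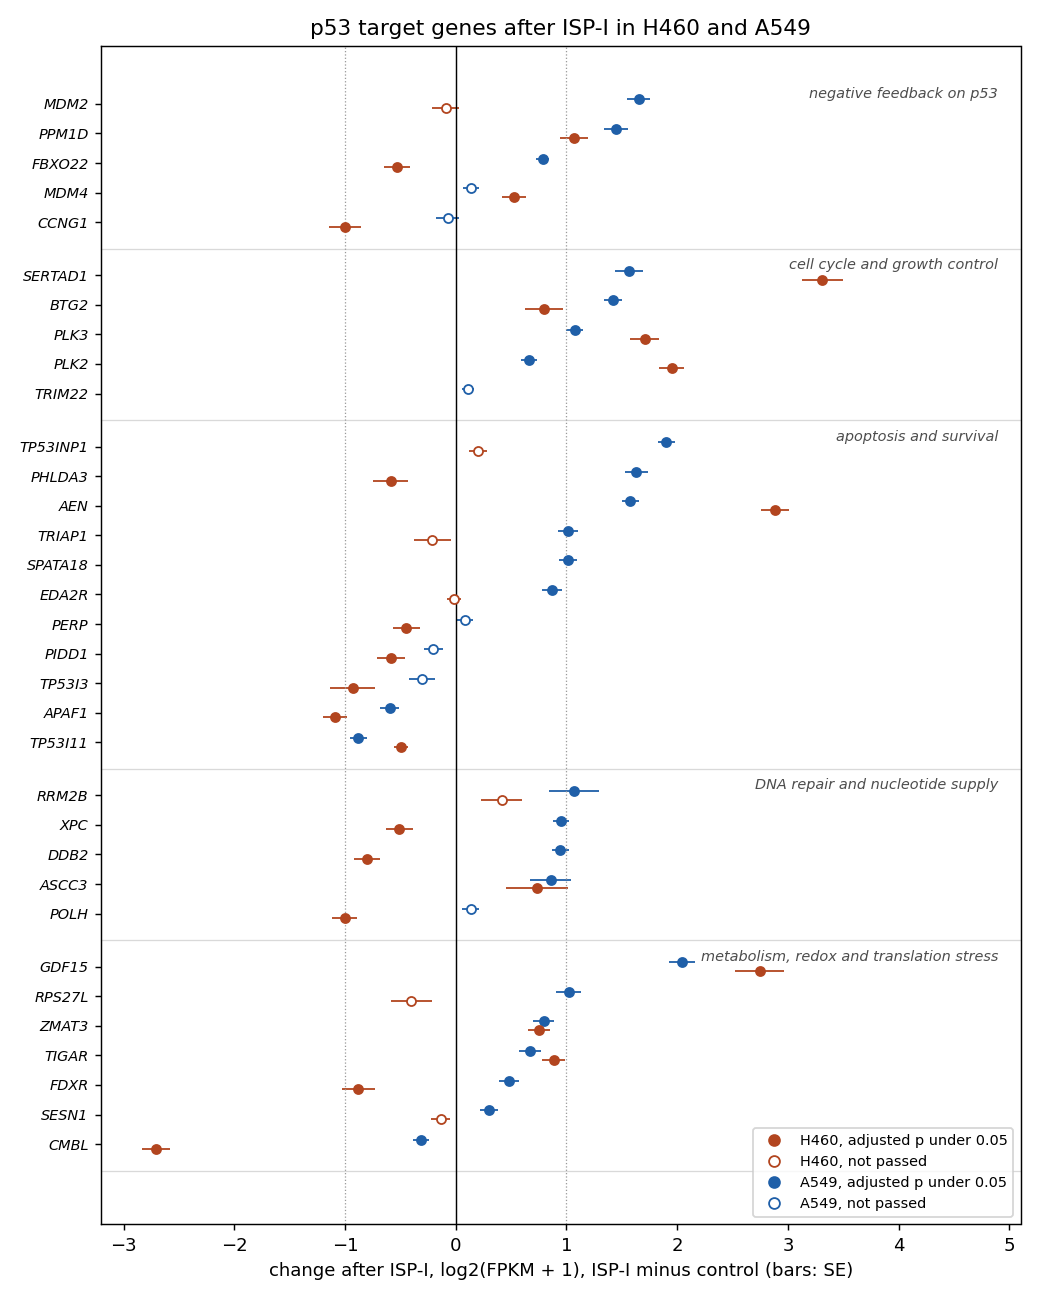
Change after ISP-I of each gene in H460 (red) and A549 (blue) by role, as the difference in log2(FPKM + 1) with its standard error. Filled points passed at an adjusted p under 0.05, and dotted lines mark a difference of 1, the threshold for a call. A549 points lie to the right of 0 for 27 of 33 genes and H460 points for 13 of 31.

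MDM2 (chromosome 12, 68808177 to 68850686), the ubiquitin ligase that holds p53 low, had 6.65, 6.64 and 4.97 FPKM in the A549 controls and 21.8, 20.4 and 21.2 after ISP-I. The ISP-I libraries all lay above the controls, 3.47-fold in the mean (1.65, SE 0.11, adjusted p 7.89e-06). In H460 the same gene had 4.32, 3.67 and 4.26 in controls and 3.52, 4.32 and 3.52 with ISP-I. These groups overlapped and the change did not pass (-0.09, SE 0.12, adjusted p 0.528), and its sign turned with the scaling. Of the exon bases of MDM2, 11.1% lie under exons of CPM and another gene on the opposite strand, and the strand setting of the counting is not given.

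PPM1D (chromosome 17, 60600183 to 60666280), the phosphatase that switches p53 signaling off, was called higher in both lines. Its H460 libraries went from 5.59, 4.96 and 5.19 FPKM in controls to 12.2, 13.8 and 10.4 (1.07, SE 0.13, adjusted p 0.000104). In A549 it went from 5.23, 5.84 and 4.08 to 15.3, 14.9 and 16 (1.45, SE 0.11, adjusted p 1.93e-05). No ISP-I library of either line fell within the range of its controls. FBXO22, a ubiquitin ligase subunit that targets p53 bound to a histone demethylase, moved in opposite directions. It had 10.5, 10.6 and 10.3 FPKM in A549 controls against 18.7, 19 and 18.6 with ISP-I (0.78, SE 0.06, adjusted p 1.95e-05). H460 controls had 5.66, 6.03 and 4.66, and ISP-I libraries 3.54, 3.29 and 3.51 (-0.53, SE 0.12, adjusted p 0.00408), a fall that no longer passed with median-of-ratios scaling (-0.31, adjusted p 0.0583). For FBXO22, 16.2% of the exon bases lie opposite NRG4. MDM4, the MDM2 relative that masks the activating part of p53, rose in H460 from 9.74 ± 0.0937 to 14.5 ± 1.31 FPKM (0.52, adjusted p 0.00265), and was at 6.22 ± 0.384 and 6.94 ± 0.241 in A549 (0.14, adjusted p 0.147). CCNG1, a cyclin that recruits a phosphatase to MDM2, fell in H460 from 22.2 ± 3.7 to 10.5 ± 1.03, 2.11-fold in mean FPKM. On the log2(FPKM + 1) scale this was just short of the threshold for a call (-0.998, adjusted p 0.000325). In A549 it was at 21.8 ± 3.25 and 20.6 ± 0.512 (-0.07, adjusted p 0.585). Of these 5 genes, 3 rose in A549 (30.5% of all genes), and in H460 2 rose and 2 fell (27.6% and 41.5% of all genes).

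Of the genes of cell cycle and growth control, 4 of 4 tested rose in H460 and 4 of 5 in A549, where 27.6% and 30.5% of all genes rose. SERTAD1 (chromosome 19, 40421589 to 40425992), a CDK4-binding cofactor of E2F, showed the highest change of all 33 genes in H460. It had 8.7, 10.1 and 5.67 FPKM in controls and 84.8, 83.7 and 96 with ISP-I, 10.8-fold in the mean (3.31, SE 0.19, adjusted p 1.86e-06). In A549 it had 12.2, 10.5 and 15.9 in controls and 38.5, 39.4 and 40.7 with ISP-I, 3.07-fold (1.56, SE 0.13, adjusted p 2.77e-05). All H460 controls lay below those of A549, and all H460 libraries with ISP-I above them. PLK2 (chromosome 5, 58453982 to 58460139), a polo-like kinase of the centriole cycle and stress responses whose upstream site matched the consensus throughout, had 29, 28.2 and 28.7 in H460 controls and 115, 120.3 and 105 with ISP-I (1.95, SE 0.11, adjusted p 2.09e-06). Its A549 libraries had 54.8, 51.2 and 47.9 in controls and 82.9, 78.7 and 83 with ISP-I (0.66, SE 0.07, adjusted p 0.000114). H460 thus started below A549 and ended above it. PLK3, a related stress kinase, had 3.43, 4.25 and 3.89 in H460 controls and 17, 13.2 and 14.6 with ISP-I (1.71, SE 0.13, adjusted p 8.1e-06). In A549 it had 4.82, 4.23 and 4.64 in controls and 11.2, 10.2 and 10.8 with ISP-I (1.07, SE 0.08, adjusted p 1.35e-05). Again no ISP-I library overlapped its controls.

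BTG2, an antiproliferative factor that promotes mRNA deadenylation, had 6.04, 5.4 and 5.35 FPKM in A549 controls and 17, 15.3 and 17.8 with ISP-I (1.42, SE 0.08, adjusted p 4.94e-06). The H460 libraries went from 3.71, 3.41 and 4.26 to 7.02, 5.73 and 9.58 (0.80, SE 0.17, adjusted p 0.00329). The H460 libraries with ISP-I were widely spread, with the third the highest, and all lay above the controls. TRIM22, an interferon-responsive ubiquitin ligase that p53 also induces, was close to absent. It had 0, 1 and 0 reads in the H460 controls and 1, 2 and 4 with ISP-I, under the limit for testing, and in A549 5, 10 and 8 reads in controls and 10, 20 and 17 with ISP-I (0.11, adjusted p 0.128).

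Of the genes of apoptosis and survival, 6 of 11 rose and 2 fell in A549, where 30.5% and 27% of all genes did so. In H460, 1 of 10 rose and 6 fell, where 27.6% and 41.5% of all genes did so. AEN (chromosome 15, 88621337 to 88632281), an exonuclease that digests DNA and RNA in apoptosis and that held a site just before its start, was the gene of this group that rose in H460. It had 15.6, 18.3 and 16.7 FPKM in H460 controls and 134, 118 and 142 with ISP-I, 7.79-fold (2.89, SE 0.13, adjusted p 6.48e-07). In A549 it had 30.7, 29.6 and 34.5 in controls and 94, 93.2 and 101 with ISP-I, 3.04-fold (1.58, SE 0.08, adjusted p 2.27e-06). With ISP-I, AEN was the highest of the 33 genes per length in H460.

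TP53INP1, a p53 cofactor that also takes part in autophagy, showed the largest fold of the group in A549. Its A549 libraries had 1.07, 1.1 and 1.12 FPKM in controls and 7.0, 6.45 and 7.05 with ISP-I, 6.24-fold (1.9, SE 0.07, adjusted p 8.79e-07). H460 stood at 0.394, 0.21 and 0.262 without ISP-I and at 0.397, 0.575 and 0.466 with it, or 18 to 54 reads a library (0.20, SE 0.08, adjusted p 0.0509). The H460 groups touched without overlapping, and with median-of-ratios scaling the change passed (0.29, adjusted p 0.012). PHLDA3 (chromosome 1, 201464278 to 201469237), which competes with AKT for membrane lipid, had 29.2, 27.8 and 36.7 in A549 controls and 98.1, 99.5 and 96.7 with ISP-I (1.63, SE 0.10, adjusted p 7.07e-06). Values in H460 were 2.06, 2.25 and 2.67 in controls and 1.0, 0.926 and 1.79 with ISP-I (-0.59, SE 0.16, adjusted p 0.00897). The change was a rise in A549 and a fall in H460, although the H460 fall did not pass under quantile normalization (-0.34, adjusted p 0.101). For PHLDA3, 18.4% of exon bases are shared with another gene on the same strand.

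TRIAP1, an inhibitor of apoptosome formation, had 32.6, 27.7 and 29.5 FPKM in A549 controls and 58.5, 67.5 and 58.2 with ISP-I (1.01, SE 0.09, adjusted p 3.61e-05). The H460 controls stood at 36.4, 34.9 and 23.7 and the treated H460 libraries at 28.1, 25.8 and 26.4, groups that overlapped through control library 3, which was low (-0.21, SE 0.17, adjusted p 0.285). Without that control the fall passed (-0.40, adjusted p 0.0322), and with median-of-ratios scaling the change was 0.06. SPATA18, which helps to digest damaged mitochondrial proteins, had 1.36, 1.39 and 1.39 in A549 controls and 4.2, 3.43 and 3.8 with ISP-I (1.01, SE 0.08, adjusted p 2.85e-05). In H460 it had 9, 2 and 2 reads in controls and 0, 1 and 5 with ISP-I, and was under the limit for testing there. EDA2R, a death receptor of the TNF family, rose in A549 from 7.42 ± 0.892 to 14.3 ± 0.243 FPKM (0.87, adjusted p 8.28e-05), and in H460 it stayed at 5 to 13 reads a library (0.156 ± 0.0409 and 0.144 ± 0.0638 FPKM).

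APAF1 (chromosome 12, 98645290 to 98735433), the scaffold of the apoptosome that activates caspase 9, fell in both lines. It had 3.1, 2.96 and 2.85 FPKM in H460 controls and 0.793, 1.11 and 0.721 with ISP-I, 3.4-fold lower (-1.09, SE 0.11, adjusted p 3.61e-05). In A549 it had 4.14, 4.11 and 3.46 in controls and 2.27, 2.23 and 2.22 with ISP-I, 1.74-fold lower (-0.60, SE 0.08, adjusted p 0.000501). No library of the groups overlapped in either line. TP53I11, a poorly characterised membrane protein, also fell in both, from 0.514 ± 0.0753 to 0.0724 ± 0.0109 FPKM in H460 (-0.50, adjusted p 0.00014) and from 7.96 ± 0.512 to 3.86 ± 0.137 in A549 (-0.88, adjusted p 3.66e-05). PERP, a desmosomal membrane protein, fell in H460 from 39.7 ± 3.78 to 28.9 ± 2.07 (-0.45, adjusted p 0.0105; with median-of-ratios scaling -0.17, adjusted p 0.257) and was at 48.8 ± 3.38 and 51.7 ± 1.94 in A549 (0.08, adjusted p 0.352). PIDD1, the scaffold that activates caspase 2, fell in H460 from 4.09 ± 0.631 to 2.37 ± 0.0911 (-0.58, adjusted p 0.0027; -0.34, adjusted p 0.0513 under quantile normalization) and was at 5.85 ± 0.491 and 4.95 ± 0.296 in A549 (-0.20, adjusted p 0.0706). TP53I3, a quinone reductase linked to oxidative stress, fell in H460 from 13.3 ± 0.846 to 6.75 ± 2.52 (-0.93, adjusted p 0.0035) and was at 28.7 ± 5.07 and 22.8 ± 1.38 in A549 (-0.31, adjusted p 0.0557).

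**Figure D2:**
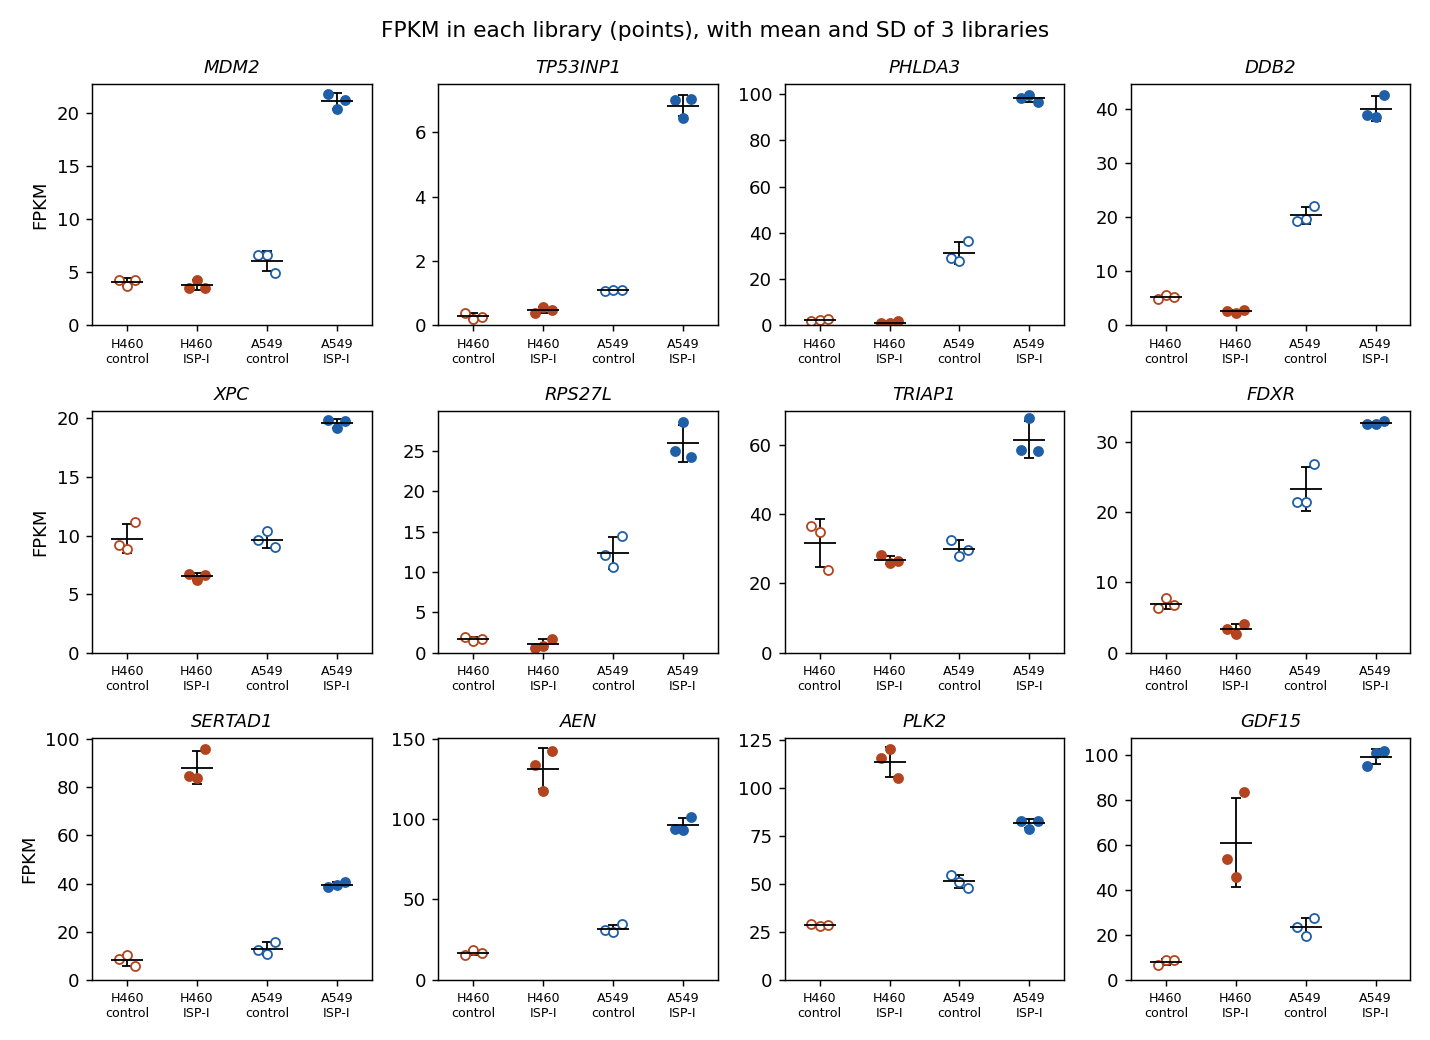
FPKM of 12 of the genes in every library (points), with the mean and SD of 3 libraries per group; open points are controls and filled points ISP-I, H460 in red and A549 in blue, and each panel has its own linear axis from 0. In the upper 2 rows the ISP-I libraries of A549 stand above all other libraries, and in the lower row both lines rise.

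Of the 5 genes of DNA repair and nucleotide supply, 4 rose in A549 (30.5% of all genes). In H460 1 rose and 3 fell (27.6% and 41.5% of all genes). DDB2 (chromosome 11, 47214465 to 47239217), which recognises ultraviolet lesions, had 19.2, 19.7 and 22.1 FPKM in A549 controls and 38.9, 38.5 and 42.7 with ISP-I (0.94, SE 0.08, adjusted p 2.77e-05). Its H460 values were 4.91, 5.64 and 5.32 before and 2.69, 2.27 and 2.89 after ISP-I (-0.80, SE 0.12, adjusted p 0.000343). DDB2 about doubled in A549 while falling 2.02-fold in H460, with no overlap in either line. XPC (chromosome 3, 14145147 to 14178621), the damage sensor of global nucleotide excision repair, had control levels that did not differ between the lines beyond their spread. Its A549 libraries had 9.6, 10.4 and 9.01 in controls and 19.9, 19.2 and 19.7 with ISP-I (0.95, SE 0.07, adjusted p 1.72e-05). For H460 the controls gave 9.18, 8.89 and 11.2 and the ISP-I libraries 6.71, 6.2 and 6.66 (-0.51, SE 0.12, adjusted p 0.0051), a fall that did not pass with median-of-ratios scaling (-0.26, adjusted p 0.0892). Of the XPC exon bases, 24.6% lie under exons of other genes on the opposite strand.

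POLH, the polymerase that copies past ultraviolet lesions, had 4.02, 4.42 and 3.76 FPKM in H460 controls and 1.36, 1.76 and 1.47 with ISP-I (-1.002, SE 0.11, adjusted p 7.13e-05), just past the threshold for a call. In A549 it had 3.82, 3.85 and 3.89 in controls and 4.47, 4.05 and 4.49 with ISP-I (0.14, SE 0.07, adjusted p 0.153). The A549 groups did not overlap although the change did not pass. RRM2B, the p53-inducible subunit of ribonucleotide reductase, had 13.7, 15.4 and 7.29 in A549 controls and 24.6, 25.2 and 26.4 with ISP-I (1.07, SE 0.22, adjusted p 0.00399). The third A549 control lay well below the other two. H460 controls had 4.47, 2.89 and 3.78, and ISP-I libraries 4.94, 6.88 and 4.16, which overlapped (0.41, SE 0.19, adjusted p 0.0771) but passed with median-of-ratios scaling (0.65, adjusted p 0.012). ASCC3, a helicase of alkylation repair, rose in A549 from 6.71 ± 2.07 to 12.6 ± 0.256 FPKM (0.86, adjusted p 0.00451). In H460 it went from 6.2 ± 1.67 to 11.4 ± 4.51 (0.73, adjusted p 0.0432), a rise that no longer passed when control library 2 or 3, or ISP-I library 1 or 2, was left out, with adjusted p of up to 0.13.

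The last group holds genes of metabolism, redox control and translation stress. In A549, 6 of 7 rose and 1 fell (30.5% and 27% of all genes), and in H460, 3 rose and 2 fell (27.6% and 41.5%). GDF15 (chromosome 19, 18374731 to 18389176), a secreted stress cytokine that acts on appetite, stood with PHLDA3 at the top of the 33 genes per length in A549 after ISP-I. It had 23.6, 19.4 and 27.6 FPKM in A549 controls and 95.2, 101 and 101 with ISP-I, 4.21-fold (2.04, SE 0.12, adjusted p 4.49e-06). The H460 libraries went from 6.46, 8.58 and 8.97 to 53.5, 45.9 and 83.4, 7.61-fold (2.75, SE 0.22, adjusted p 1.08e-05). The third H460 library with ISP-I was the highest, and all 3 stood far above the controls. RPS27L, a ribosomal protein relative that restrains MDM2, had 12.1, 10.6 and 14.4 in A549 controls and 25, 28.6 and 24.2 with ISP-I (1.02, SE 0.11, adjusted p 0.000139). H460 stood at 1.89, 1.4 and 1.66 without ISP-I and at 0.621, 0.803 and 1.75 with it, overlapping through ISP-I library 3 (-0.40, SE 0.19, adjusted p 0.087). Without that library the fall in H460 passed (-0.63, adjusted p 0.000815). RPS27L has a close paralog, RPS27, and how reads matching both were counted is not stated.

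FDXR (chromosome 17, 74862497 to 74873031), the mitochondrial reductase that feeds electrons to steroid and iron-sulfur synthesis, rose in A549 and fell in H460. Its A549 libraries had 21.4, 21.5 and 26.9 FPKM in controls and 32.6, 32.5 and 32.9 with ISP-I (0.48, SE 0.09, adjusted p 0.00267). Values in H460 were 6.33, 7.81 and 6.71 in controls and 3.37, 2.64 and 4.03 with ISP-I (-0.88, SE 0.15, adjusted p 0.000766). Neither pair of groups overlapped. CMBL (chromosome 5, 10275875 to 10307902), a hydrolase that activates the drug olmesartan, showed the deepest fall of the 33 genes. The H460 controls stood at 29.6, 28.7 and 23.6 and the treated H460 libraries at 3.66, 3.11 and 3.19, 8.23-fold lower (-2.71, SE 0.13, adjusted p 8.2e-07). In A549 it had 6.55, 6.91 and 7.23 in controls and 5.23, 5.22 and 5.61 with ISP-I (-0.31, SE 0.07, adjusted p 0.00702). It thus fell in both lines, from a control level that was 3.96-fold higher in H460. TIGAR, which lowers fructose-2,6-bisphosphate and so slows glycolysis, rose in H460 from 0.731 ± 0.117 to 2.2 ± 0.25 FPKM (0.88, adjusted p 8.39e-05) and in A549 from 1.81 ± 0.261 to 3.46 ± 0.326 (0.67, adjusted p 0.000627). For TIGAR, 18.1% of exon bases are shared with another gene on the same strand. ZMAT3, an RNA-binding protein that controls splicing and the other gene with a full consensus match, rose in H460 from 1.22 ± 0.0329 to 2.74 ± 0.272 (0.75, adjusted p 0.000186) and in A549 from 2.09 ± 0.32 to 4.35 ± 0.091 (0.80, adjusted p 0.000189). SESN1, an inhibitor of mTORC1 under amino acid shortage, rose in A549 from 1.52 ± 0.172 to 2.09 ± 0.135 (0.30, adjusted p 0.0147) and was at 1.03 ± 0.153 and 0.841 ± 0.0188 in H460 (-0.14, adjusted p 0.183). The A549 rise did not pass without ISP-I library 3 (adjusted p 0.0587).

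Set side by side, 10 genes rose in both lines: PPM1D, BTG2, PLK2, PLK3, SERTAD1, AEN, ASCC3, TIGAR, GDF15 and ZMAT3. Of all 12708 genes tested in both lines, 17.7% did so. The H460 rise of ASCC3 no longer passed in 4 of 6 fits that each left out a library. APAF1, TP53I11 and CMBL fell in both, as did 21.4% of all genes. FBXO22, PHLDA3, XPC, DDB2 and FDXR rose in A549 and fell in H460, a pattern of 3.82% of all genes, and no member showed the opposite. The H460 fall did not pass with median-of-ratios scaling for FBXO22 (adjusted p 0.0583) and XPC (adjusted p 0.0892). That of PHLDA3 did not pass with quantile normalization (adjusted p 0.101). Another 7, MDM2, EDA2R, TP53INP1, TRIAP1, RRM2B, SESN1 and RPS27L, rose in A549 and did not pass in H460 (9.14% of all genes). Of these, TP53INP1 and RRM2B passed higher in H460 with median-of-ratios scaling (adjusted p 0.012 for each). CCNG1, PERP, PIDD1, TP53I3 and POLH fell in H460 and did not pass in A549 (17.1% of all genes). The fall of PERP did not pass with median-of-ratios scaling (adjusted p 0.257), nor that of PIDD1 with quantile normalization (adjusted p 0.0513). MDM4 rose in H460 and did not pass in A549 (7.77% of all genes). Of the genes called higher, 5 were called in both lines, 8 in A549 and not in H460 and 1, PLK2, in H460 and not in A549. Of all genes, 4.2% were called higher in A549 and 10.5% in H460, and their split between the lines was not counted. A missing call is not an absent change: BTG2 also rose in H460 and PLK2 in A549. SPATA18, among the 8, was not tested in H460.

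The difference between the lines was tested as the interaction of line and treatment in all 12 libraries. Of 32 genes tested, 7 had a higher change in H460 and 19 a lower change, against 18.6% and 34.7% of 13953 genes. The difference was over 1 on the log2 scale in 3 and 12 of them, against 5.93% and 10.1%. The median difference was -0.63, beside -0.16 for all genes. With median-of-ratios scaling 8 were higher and 15 lower, and over 1 in 4 and 10, while the median of all genes moved to 0.02 and the share of calls that were positive among all genes went from 37.0% to 61.1%. CMBL differed most (-2.4, SE 0.14, adjusted p 7.69e-08), then PHLDA3 (-2.22, SE 0.20, adjusted p 2.88e-06). DDB2, MDM2, TP53INP1, XPC, RPS27L, FDXR, FBXO22, TRIAP1, POLH and SPATA18 followed, with differences from -1.74 to -1.06. SERTAD1 (1.75, SE 0.25, adjusted p 9.45e-05), AEN (1.31, SE 0.14, adjusted p 1.06e-05) and PLK2 (1.29, SE 0.12, adjusted p 2.98e-06) had the higher change in H460. SPATA18 was tested here only through its level in A549, so its difference is that of a gene near 0 in H460. For GDF15 (0.70, adjusted p 0.0489) the difference no longer passed in 10 of 12 fits that each left out a library, and for PIDD1 (-0.38, adjusted p 0.0368) in 8 of 12. The difference of TP53I11 (0.38) turned to -0.80 with a pseudocount of 0.1, and its H460 libraries with ISP-I held 8 to 9 reads each. The differences of PPM1D, TIGAR, ZMAT3, ASCC3, RRM2B and TP53I3 did not pass. That of TIGAR (0.22, adjusted p 0.204) did pass with a pseudocount of 0.1, median-of-ratios scaling, quantile normalization and both voom fits, at 0.44 to 0.97 (adjusted p 0.00252 to 0.0455), and those of PPM1D, RRM2B and TP53I3 each passed in 2 of the 12 fits that left out a library.

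**Figure D3:**
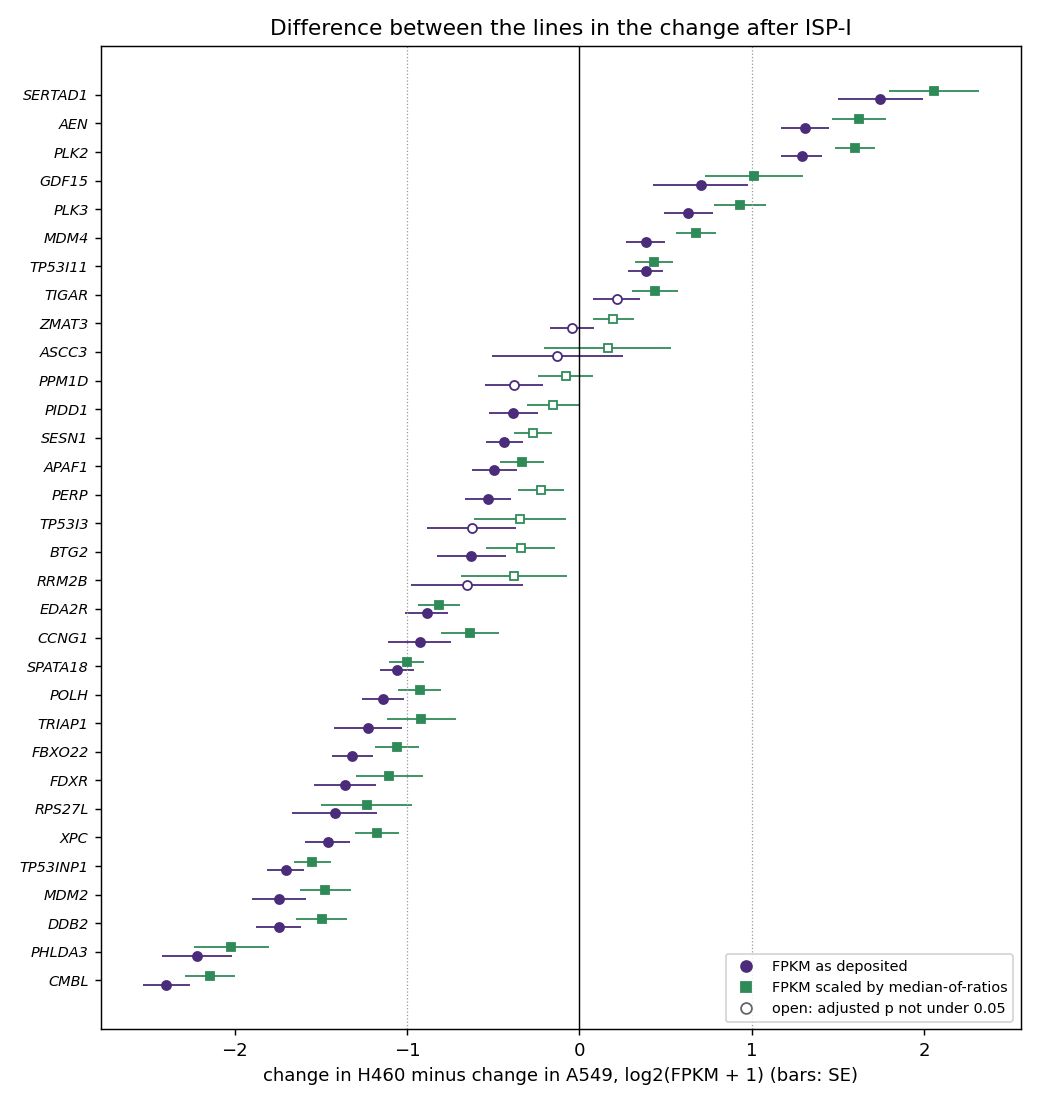
Difference between the lines in the change after ISP-I (H460 minus A549) for each gene on the log2(FPKM + 1) scale with its standard error, from the values as deposited (circles) and after median-of-ratios scaling (squares); open symbols did not pass. Circles run from -2.40 for CMBL to 1.75 for SERTAD1, and squares lie to the right of their circles.

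The lines differed before treatment too, in the same control libraries that the changes above start from. Of 32 genes tested, 23 were lower in untreated H460 than in untreated A549 and 2 were higher, against 31.6% and 28.6% of 13532 genes. When 1 control library was left out, 19 to 22 were lower. SERTAD1, APAF1 and PERP each no longer passed in 4 of these 6 fits, and SESN1 in 2. By over 1 on the log2(FPKM + 1) scale, 10 were lower and 1 higher, against 8.78% and 5.64%. TP53INP1 and TIGAR, 3.79-fold and 2.47-fold lower in mean FPKM, passed but stayed under this cut. EDA2R was 47.6-fold lower in the mean FPKM of H460 (-2.86, SE 0.10, adjusted p 7.58e-08), with 9, 6 and 10 reads in H460 controls and 385, 440 and 347 in A549. TP53I11 was 15.5-fold lower (-2.56, SE 0.09, adjusted p 7.91e-08) and PHLDA3 13.4-fold lower (-3.27, SE 0.12, adjusted p 1.1e-07). RPS27L, DDB2, FDXR, GDF15, RRM2B and TP53I3 were between 2.15 and 7.49 times lower. SPATA18 was 23.1-fold lower on 2 to 9 reads per H460 control, and was tested only through its level in A549. CMBL (3.96-fold; 1.84, SE 0.10, adjusted p 1.22e-06) and MDM4 (1.56-fold; 0.57, SE 0.08, adjusted p 0.000454) were the genes higher in H460. PPM1D, CCNG1, PLK3, TRIAP1, XPC, POLH and ASCC3 did not pass. Levels of PPM1D were 5.25 ± 0.321 in H460 and 5.05 ± 0.893 FPKM in A549, and those of XPC 9.75 ± 1.25 and 9.66 ± 0.683.

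**Figure D4:**
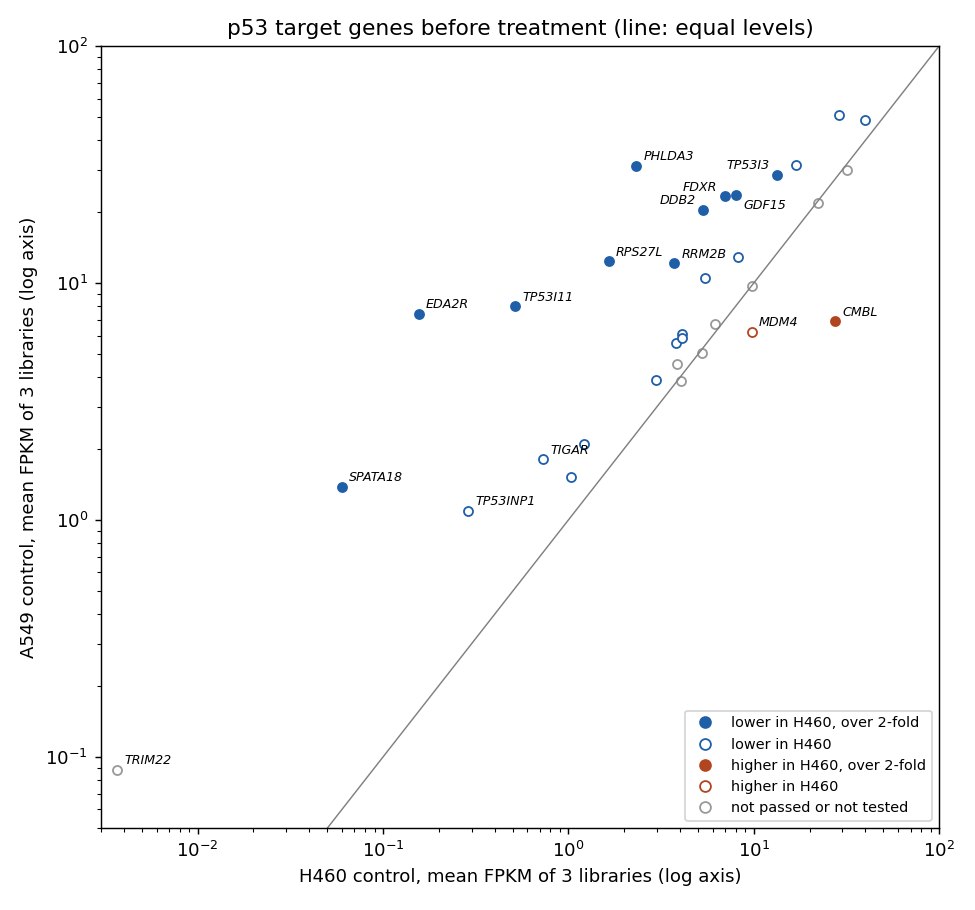
Mean FPKM of each gene in the 3 controls of H460 (horizontal) and of A549 (vertical), both on log axes, with the line of equal levels. Genes above the line are lower in H460, filled points by over 2-fold on the log2(FPKM + 1) scale; EDA2R, TP53I11, PHLDA3 and SPATA18 lie farthest from it among genes that passed, and CMBL lies below it.

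The rest of the pathway was read from lists written from general knowledge. CDKN2A, whose ARF product restrains MDM2, had 0 reads in every A549 control and 0 to 19 in the other libraries.

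Of 28 regulators of p53 tested, 8 rose and 7 fell in H460 (27.6% and 41.5% of all genes), and 12 rose and 5 fell in A549 (30.5% and 27% of all genes). Their median changes were 0.02 and -0.02, beside -0.15 and 0.02 for all genes. SIRT1, a deacetylase that acts on p53, rose from 6.3 ± 0.561 to 44.8 ± 11.2 FPKM in H460 (2.62, adjusted p 4.22e-06) and from 10.6 ± 1.5 to 23 ± 1.67 in A549 (1.05, adjusted p 8.5e-05). TP53BP2, a partner that steers p53 to apoptosis genes, rose from 11.6 ± 0.553 to 36.9 ± 9.01 in H460 (1.56, adjusted p 8.66e-05) and from 8.7 ± 0.729 to 17.5 ± 0.289 in A549 (0.94, adjusted p 2.5e-05). AURKA, a mitotic kinase that phosphorylates p53, fell from 87.4 ± 1.12 to 30.0 ± 2.02 in H460 (-1.51, adjusted p 6.78e-06) and from 70.9 ± 4.0 to 40.4 ± 1.62 in A549 (-0.79, adjusted p 3.7e-05). Of other p53 targets, 19 of 44 tested rose and 14 fell in H460, and 28 of 45 rose and 5 fell in A549, against the same shares of all genes. The median changes were 0.21 and 0.47, beside -0.15 and 0.02 for all genes. GADD45A, a growth arrest and repair protein, rose from 10.4 ± 0.429 to 121 ± 41.3 in H460 (3.37, adjusted p 3.01e-06) and from 22.7 ± 2.55 to 136 ± 4.51 in A549 (2.54, adjusted p 5.08e-07). CDKN1A, the p21 inhibitor of cyclin kinases, rose from 7.89 ± 0.69 to 63.1 ± 11.4 in H460 (2.84, adjusted p 1.3e-06) and from 50.3 ± 5.71 to 213 ± 8.38 in A549 (2.07, adjusted p 1.32e-06). SFN, the 14-3-3 protein that holds cells before mitosis, rose from 136 ± 6.26 to 749 ± 272 in H460 (2.4, adjusted p 3.74e-05) and from 187 ± 24.4 to 258 ± 11.1 in A549 (0.47, adjusted p 0.0044). CDIP1, a pro-apoptotic membrane protein, rose from 3.72 ± 0.0781 to 20.4 ± 2.34 in H460 (2.18, adjusted p 1.57e-06) and from 2.47 ± 0.299 to 10.5 ± 0.197 in A549 (1.74, adjusted p 2.15e-06).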

How the data were processed

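RNA was prepared with TRIzol and the RNeasy kit, made into TruSeq libraries and sequenced as 150 bp paired-end reads on a NovaSeq instrument. Per the submitters' processing notes and the study's methods, the authors used FastQC for filtering, HISAT2 for mapping (hg38) and HTSeq 0.9.1 for counting, and deposited FPKM. The annotation and the strand setting are not given in the sources used here. The authors' values are normalized only by gene length and library total. In each library 100% of FPKM times length came out as whole reads within 0.01 of a read, so reads were recovered. Reads on genes limit the precision: 23 of the 33 genes had more than 100 reads in every library.

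Columns name line and treatment, with a running number within each line that does not match the labels' replicate numbers in both groups, so libraries were numbered by their order within a group. Each line's ISP-I and control libraries were compared with limma 3.58.1 (R 4.3.3) with a mean-variance trend on log2(FPKM + 1), for all genes whose mean reached 0.1 FPKM, with Benjamini-Hochberg adjustment over all genes tested. The fit was tested on simulated data. An interaction term in all 12 libraries compared the changes of the lines, and untreated lines were compared in the 6 controls. No set test was run. A gene of the pathway lists is not reported here. Of the 33 genes, those called in a line, or with a called difference between the lines, are given in every library (TRIM22 too, in reads), and others by mean ± SD. Of the pathway lists, the up to 3 called genes with the largest change in each line, and CDKN2A and CDKN1A, are named. The genes and lists were chosen with earlier results of these data known. Overlap with other genes was read from GENCODE 44, whose spans met those of the table for 100% of 19895 shared genes, and promoters came from RefSeq. Alternatives were no filter or a mean of 1 FPKM, a pseudocount of 0.1, median-of-ratios scaling, quantile normalization, voom on the recovered reads (with library totals and with median-of-ratios), a single fit of 12 libraries, and leaving out each library. The window of 2500 bases on each side of the start was chosen after seeing the data. Tables and figures were made in Python 3.11.15 (pandas 2.3.3, matplotlib 3.10.9).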

Additional observations from a re-analysis of the deposited data

Results flagged for a closer look

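For 15 of the 32 genes tested, the change after ISP-I differed between H460 and A549 by more than 1 on the log2 scale, with an adjusted p under 0.05 for the interaction of line and treatment (limma, Benjamini-Hochberg), which is what singled them out. The differences below are H460 minus A549 in log2(FPKM + 1). In 3 genes the change was higher in H460: SERTAD1 (1.75), AEN (1.31) and PLK2 (1.29). All 3 rose in both lines, so the difference is one of size.

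In the other 12 it was lower in H460. CMBL (-2.40) and PHLDA3 (-2.22) stood farthest from 0. MDM2 (-1.74), DDB2 (-1.74) and TP53INP1 (-1.70) came next. XPC differed by -1.46, RPS27L by -1.42, FDXR by -1.36 and FBXO22 by -1.32. TRIAP1 (-1.22), POLH (-1.14) and SPATA18 (-1.06) were the smallest. Of these 12, CMBL fell in both lines and POLH passed only in H460, where it fell, while the other 10 rose in A549. SPATA18 was tested here only through its level in A549. With 9, 2 and 2 reads in H460 controls and 0, 1 and 5 with ISP-I, its difference is no measure of a change in H460.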

How the results depend on the processing

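Of the values of single genes under the alternatives, 453 of 460 in A549, 392 of 430 in H460 and 414 of 446 for the untreated lines kept their direction and their side of the threshold, and of 608 for the difference between the lines, 14 turned their sign, 32 no longer passed and 13 passed anew. Counts of called genes moved most in H460. Those called lower (3) became 7 with a pseudocount of 0.1, 8 with voom and library totals, and 1 with median-of-ratios scaling or quantile normalization, and those called higher (6) became 11 with voom and median-of-ratios. Calls over all genes moved the same way. In H460, all genes called lower went from 2047 to 3464, 3706, 1504 and 1671 in the same order of settings. All genes called higher went from 1409 to 3161. In A549 the genes called lower (0) became 1 with a pseudocount of 0.1 and with either voom fit, and those that passed lower (3) ranged from 3 to 5 when a library was left out, reaching 5 without control library 3. All genes called lower in A549 went from 481 to 1062 with that pseudocount. With voom they were 1235 (library totals) and 1322 (median-of-ratios). The genes with a called higher difference in H460 (3) became 5 with voom and median-of-ratios, while such calls over all genes went from 827 to 2068. The genes with a p53 site went from 1 in promoter windows to 9 within 2500 bases of the start. The causes were not tested.

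Signs turned only in values that did not pass, apart from the difference of TP53I11, which became -0.80 with a pseudocount of 0.1, -1.73 with voom and library totals and -1.41 with voom and median-of-ratios. In H460, MDM2 became 0.14 with median-of-ratios scaling, 0.14 with quantile normalization and 0.17 with voom and median-of-ratios. EDA2R became 0.022 and 0.13 and TRIAP1 0.062 and 0.065 with median-of-ratios scaling and with voom on it, and SESN1 became 0.060 with quantile normalization and 0.0061 with voom and median-of-ratios. For the difference between the lines, ASCC3 became 0.16 with median-of-ratios scaling and 0.18 with voom on it. ZMAT3 became 0.073 with a pseudocount of 0.1, 0.20 with median-of-ratios scaling, 0.18 with quantile normalization, 0.10 with voom and library totals and 0.42 with voom and median-of-ratios. Between the untreated lines CCNG1 became -0.021 and TRIAP1 -0.027 with quantile normalization. Leaving out 1 library gave -0.060 to 0.017 for EDA2R in H460 and -0.19 to 0.012 for CCNG1 in A549. For the difference between the lines it gave -0.38 to 0.18 for ASCC3 and -0.10 to 0.044 for ZMAT3. Between the untreated lines it gave -0.064 to 0.15 for PPM1D, -0.098 to 0.14 for CCNG1, -0.050 to 0.25 for TRIAP1, -0.086 to 0.064 for XPC and -0.33 to 0.049 for ASCC3.

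Among all genes, 40.8% of H460 calls were higher with the values as deposited and 56.5% with median-of-ratios scaling. No paired analysis was possible because the columns are numbered through each line and nothing ties a treated to a control library. Genes under about 20 reads a library, such as SPATA18, TRIM22 and EDA2R in H460, cannot show a change of moderate size at this depth, and a single dose and time were sampled.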
